A study of Drosophila melanogaster with 2 samples.

Results

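The cytoplasmic ribosomal protein genes of Drosophila melanogaster were taken from the Ensembl annotation by symbol: every protein-coding gene whose symbol begins with RpL, RpS or RpLP and a digit, together with sta, and without RpLP0-like and RpL24-like. This gave 91 of the 13945 protein-coding genes on the chromosome arms, 52 for the large and 39 for the small subunit. Chromatin came from whole embryos of both sexes, 0 to 24 h old, of a transgenic line labelled CG7556-GFP that stably makes the protein of CG7556 with GFP fused to its C-terminal end, and the descriptions name an antibody against GFP, while the antibody label names CG7556. Both samples, labelled biological replicates 1 and 2, belong to 1 group with no other genotype or treatment, and each mixes all cell types of the embryo. No control without the tag was analysed here, so regions that the antibody recovers for other reasons are not separated from those of the tagged protein.

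Ribosomal proteins and ribosomal RNA together build the subunits of the ribosome: the small one decodes the messenger RNA and the large one joins the amino acids. The genes are among the most actively transcribed in growing cells, and in flies the loss of a single copy of many of them gives the Minute phenotype of slow development and short bristles. Most of their promoters use a polypyrimidine initiator, in which transcription starts at a C within a run of pyrimidines, in place of the usual initiator. Several of the proteins have a paralog, often restricted to the germ line.

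Most of the genes carried a peak at a start site. An optimal summit, that is the summit of a peak on the authors' reproducibility-filtered list of 7184 peaks, lay within 500 bp of an annotated start in 59 of 91 genes (64.8%, 95% exact binomial interval 54.1% to 74.6%), against 21.1% of all protein-coding genes. These genes are called bound below, which means only that such a summit was present. Optimal summits at these genes had the same signal and rank in the list called on both replicates pooled. Bound thus does not mean reproduced gene by gene. In the large subunit 37 of 52 were bound (71.2%, interval 56.9% to 82.9%), and in the small subunit 22 of 39 (56.4%, interval 39.6% to 72.2%). The intervals of the subunits overlap, and the difference was not tested. Its direction depended on the list: a pooled region of any strength lay at 42 of 52 large subunit genes (80.8%) and at 36 of 39 small subunit genes (92.3%). The share of all protein-coding genes with such a region was also higher, at 42.1%. Intervals here cover counting over genes only, since the lists hold no read counts and depth is unknown.

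Bound ribosomal protein genes did not stand at the top of the list. Signal, the authors' single value per peak on a scale the sources do not state, had a median of 317 over the 59 genes (quartiles 233 and 447, range 147 to 833), against 301 over all 2939 bound protein-coding genes (quartiles 198 and 529). There were 476 optimal peaks above the strongest of them. The median was 339 in the large subunit and 265 in the small subunit.

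**Figure D1:**
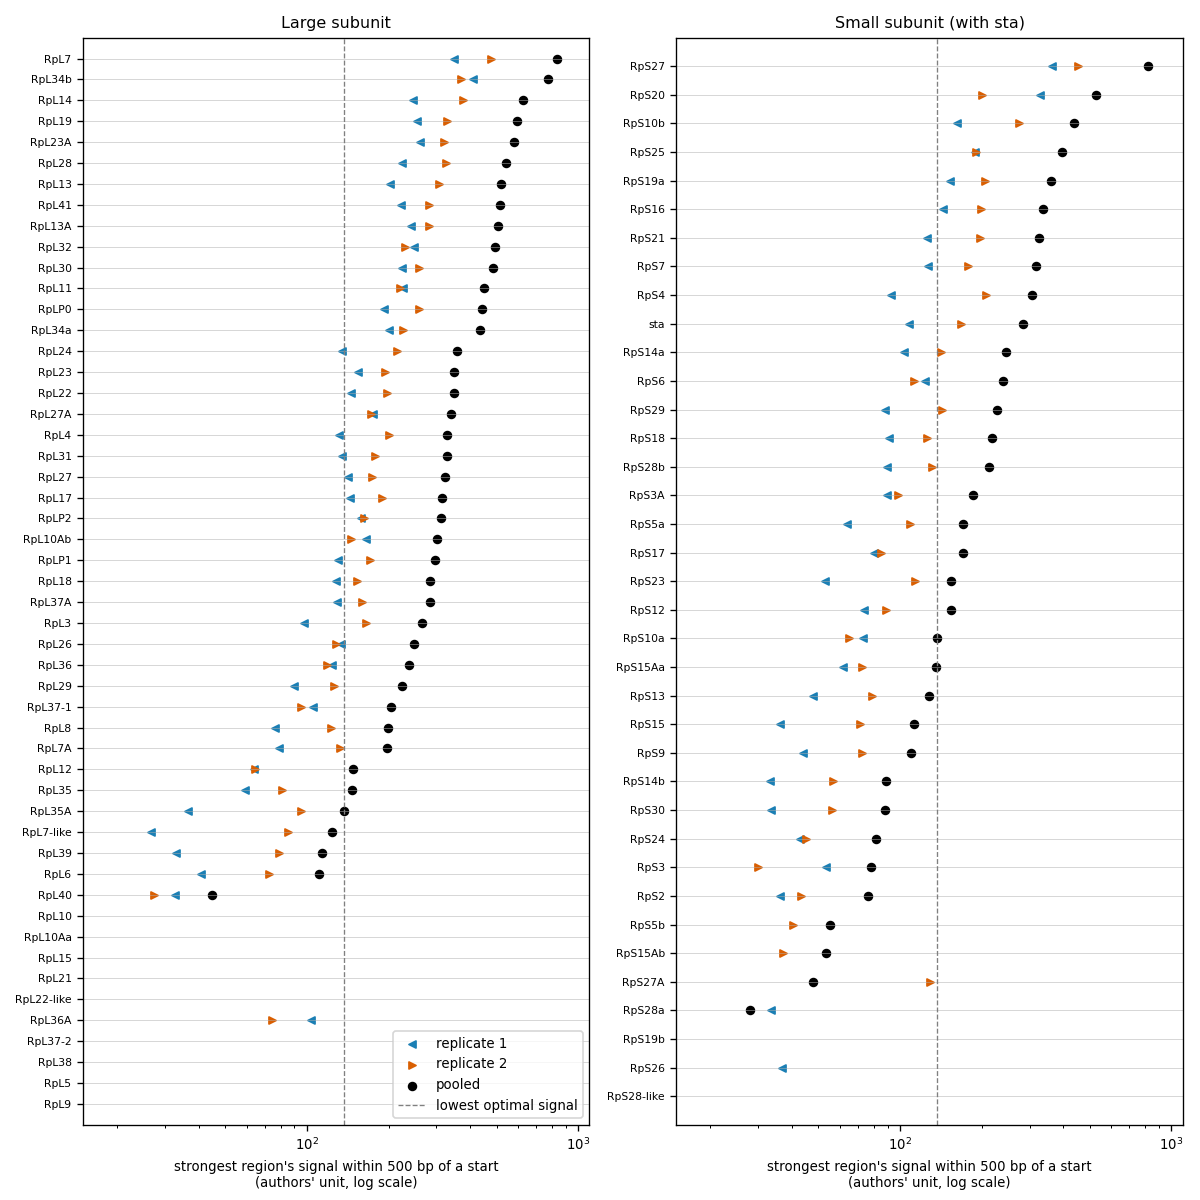
Signal of the strongest region within 500 bp of a start of the ribosomal protein genes drawn (log axis), with large subunit genes on the left and small subunit genes on the right, ordered by pooled signal. Black circles give the pooled list, blue triangles replicate 1 and orange triangles replicate 2; the dashed line is the lowest optimal signal and applies to the circles only, because each list has its own scale. Genes with no marker had no region in any list, and at most genes the replicate 2 marker lies to the right of the replicate 1 marker.

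The strongest peaks whose own start was the nearest were those of RpL7, RpS27, RpL14, RpL19, RpL23A and RpL28. Of these, only the RpL23A summit had no other start within 500 bp. A divergent coding start lay 71 bp from the RpL7 summit (Ripalpha), 132 bp from that of RpS27 (Nup37) and 111 bp from that of RpL14 (Nelf-E). For RpL19 it lay at 117 bp (CG3776) and for RpL28 at 317 bp (eIF1). Such peaks cannot be given to 1 gene. RpL7 (FBgn0005593, 2L from 10201004 to 10202321, plus strand), a large subunit gene, had a pooled signal of 833 at a summit 41 bp downstream of a start, with 347 in replicate 1 (rank 726) and 477 in replicate 2 (rank 351). RpS27 (FBgn0039300, 3R from 25245955 to 25247514, minus strand), of the small subunit, had 823 at 12 bp upstream, with 362 in replicate 1 and 454 in replicate 2. Both ranked higher in replicate 2. RpL14 (FBgn0017579, 3L from 8601006 to 8602392, plus strand) had 627 at 16 bp upstream (247 and 375 in replicates 1 and 2), and RpL23A (FBgn0026372, 3L from 1666288 to 1668654, minus strand) had 579 at 75 bp upstream (262 and 319). RpL19 had 597 at 14 bp upstream and RpL28 had 543 at 64 bp upstream.

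The promoters of RpL7, RpS27, RpL14 and RpL23A are shown as examples of strong summits with the gene's own start nearest; RpL19, which is stronger than RpL23A, is not printed. Each line runs 5' to 3' on the gene's strand from 150 bp before the start to the twentieth base of the transcript (RefSeq Release 6 assembly, dm6 coordinates). Capitals mark CTTT, the core of the polypyrimidine initiator, with its C within 5 bp of the start. With this tolerance the C need not be the first base of the transcript. Also in capitals are matches on either strand to the motifs searched: the DRE, motif 1, the E-box, the GAGA repeat and TATAA. RpL7 lies at chr2L:10200854-10201023, RpS27 at chr3R:25247495-25247664, RpL14 at chr3L:8600856-8601025 and RpL23A at chr3L:1668635-1668804. RpL14 and RpL23A hold CTTT within 5 bp of the printed start. RpL7 holds the reverse complement of the motif 1 core, and RpS27 holds a pair of overlapping TATAA matches. RpL7 and RpS27 each have 2 annotated starts and hold CTTT within 5 bp of the one not printed.
RpL7: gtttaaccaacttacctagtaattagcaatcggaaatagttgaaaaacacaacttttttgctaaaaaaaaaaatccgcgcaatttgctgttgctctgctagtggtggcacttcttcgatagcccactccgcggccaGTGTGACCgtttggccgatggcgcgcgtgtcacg
RpS27: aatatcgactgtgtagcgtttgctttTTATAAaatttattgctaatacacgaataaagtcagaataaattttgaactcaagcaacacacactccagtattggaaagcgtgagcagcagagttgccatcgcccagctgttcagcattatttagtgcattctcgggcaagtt
RpL14: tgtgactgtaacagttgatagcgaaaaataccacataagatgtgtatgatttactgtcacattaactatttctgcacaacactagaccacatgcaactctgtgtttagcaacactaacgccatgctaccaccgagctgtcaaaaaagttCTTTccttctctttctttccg
RpL23A: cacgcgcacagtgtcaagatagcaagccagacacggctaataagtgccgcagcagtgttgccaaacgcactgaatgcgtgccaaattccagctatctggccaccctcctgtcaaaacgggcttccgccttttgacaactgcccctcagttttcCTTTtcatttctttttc

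The genes named here for their roles were chosen after their values were seen. All 3 genes of the P stalk, which recruits the translation factors to the ribosome, were bound: RpLP0 with a signal of 443 (summit 41 bp upstream), RpLP2 with 311 (53 bp upstream) and RpLP1 with 296 (38 bp upstream). Of the pair that binds 5S ribosomal RNA, RpL11 had 451 at 33 bp upstream, while RpL5 had no region in any list. RpL3, which reaches into the catalytic centre, had 265, and RpL41, one of the smallest ribosomal proteins, had 516. RpL32, widely used as a reference transcript, had 493. In the small subunit, sta, the fly homologue of the laminin receptor precursor, had 285. RpS6, the target of S6 kinase, had 240 at 298 bp upstream, the most distant of all bound genes. RpS12, known in flies for its part in Minute cell competition, had 154, close to the lowest bound value.

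The 3 genes made as fusions with ubiquitin or a ubiquitin-like protein were among the 32 of 91 that were unbound. RpL40 had a pooled signal of 44.8, RpS30 one of 87.9 and RpS27A one of 47.7, although RpS27A had 129 at rank 3340 in replicate 2. RpS3, at the messenger RNA entry channel, was also unbound at 78.0 in the pooled list, with 53.2 in replicate 1 and 30.0 in replicate 2. The 4 pooled values lie under the lowest optimal signal of 137.112.

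Summits of the bound genes sat on or just before the start site. The strongest summit lay at a median of -38 bp from the gene's nearest start (negative is upstream; quartiles -77.5 and -9 bp), against -162 bp over all bound protein-coding genes (quartiles -260 and -87 bp). It was within 100 bp of a start in 47 of 59 ribosomal protein genes (79.7%) and in 660 of 2939 bound protein-coding genes (22.5%). The median was -40 bp in the large and -35 bp in the small subunit. Among genes with no coding start head to head, a setting added after seeing the data, it was -33 bp in 29 bound ribosomal protein genes and -198 bp in 1479 bound genes. GC content differed along with position: the 201 bp around the summit had a median of 42.8% GC in the ribosomal protein genes and 32.3% over bound promoters. With summits limited to 100 bp from the start the medians were 43.8% and 35.8%. The part of base composition in the position was not tested.

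**Figure D2:**
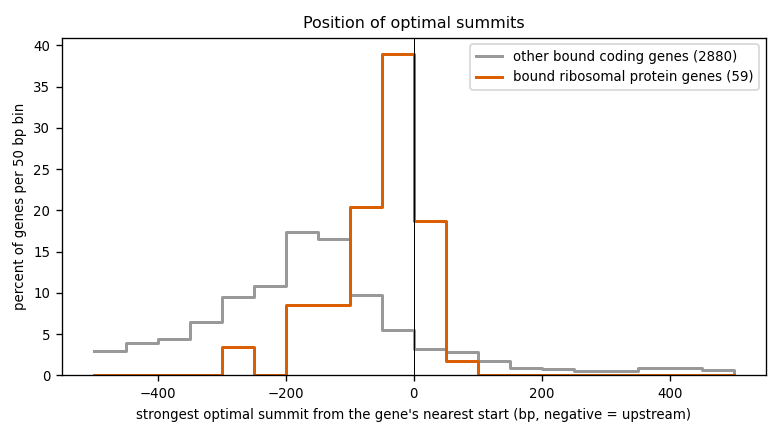
Distance of the strongest optimal summit from the gene's nearest start (bp, horizontal axis), as the percent of genes in each 50 bp bin, for 59 bound ribosomal protein genes and 2880 other bound coding genes. Ribosomal protein summits gather in the bins next to the start, around a median of -38 bp, while the other genes peak further upstream.

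Many of the genes had a secondary summit. In the pooled list 60 of the 78 genes with a summit had more than 1 within 500 bp of a start (76.9%, interval 66.0% to 85.7%), against 56.8% of the 5872 protein-coding genes with a summit. Where there were exactly 2, they stood a median of 204 bp apart (54 genes, range 199 to 463 bp), against 206 bp over all such protein-coding genes, and the weaker had a median of 0.372 times the signal of the stronger. In the optimal list 15 of the 59 bound genes had several. The matching share over all bound protein-coding genes is not given here, so this count has no background to be judged by. RpS7, of the small subunit, had 3: a signal of 317 lay 6 bp upstream of the nearest start, one of 196 lay 133 bp upstream and one of 153 lay 332 bp upstream. RpS27 had its second summit 211 bp upstream (491), RpL28 had it 264 bp upstream (434) and RpL19 had it 213 bp upstream (312). The others included RpL10Ab, RpL13, RpL18, RpL22, RpL27A, RpL32, RpL36 and RpS25. The shortest spacing, 199 bp, was close to the median and was the same over all protein-coding genes with exactly 2. The spacing is thus not particular to ribosomal protein genes, and why summits stood this far apart was not tested.

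Signal at ribosomal protein genes was mostly lower in replicate 1 than in replicate 2, whereas over all optimal peaks the median was slightly higher in replicate 1. At optimal summits matched within 100 bp in both replicates, the ratio of replicate 1 to replicate 2 had a median of 0.750 over 56 of the 59 bound genes (quartiles 0.655 and 0.867), against 1.08 over all 6771 matched optimal peaks (quartiles 0.893 and 1.25). The ratio was below 1 in 48 of 56 genes (85.7%), and in 38.5% of bound protein-coding genes. It was 0.777 in the large subunit (37 genes) and 0.724 in the small subunit (19 genes). RpS23 and RpS6 were among the genes that had no replicate 1 summit within 100 bp and gave no ratio. The ranks, which do not depend on the scale of a list, showed the same: 51 of 59 bound genes (86.4%) ranked higher in replicate 2, against 49.5% of all bound protein-coding genes. With 2 replicates of 1 group, this difference between the libraries cannot be given a test, and its cause was not tested.

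The ratio went with the position of the summit. It had a median of 0.728 over 45 genes with the summit within 100 bp of a start, and of 0.940 over 11 genes with it farther away. Over all bound protein-coding genes with a summit within 100 bp the median was 1.02. The lowest ratios were at RpS21 (0.143; 28.1 in replicate 1 and 196 in replicate 2), RpS4 (0.446; 92.9 and 208) and RpS12 (0.451; 40.0 and 88.6). At RpS21 and RpS12 replicate 1 had a stronger summit outside the matching distance, with 126 and 73.9, so that their ratios rest partly on which summit was paired. With the strongest regions the ratio was 0.642 at RpS21 and 0.834 at RpS12. The highest ratios were at RpS20 (1.63; 328 and 201), RpL10Ab (1.13; 165 and 145) and RpL27A (1.13; 175 and 155), all with summits more than 100 bp from a start. RpL27A had a stronger replicate 2 summit (172) outside the matching distance, and its ratio was 1.02 with the strongest regions. With the strongest region of each replicate at any of the starts, the median was 0.763 over the 75 genes with a region in both.

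**Figure D3:**
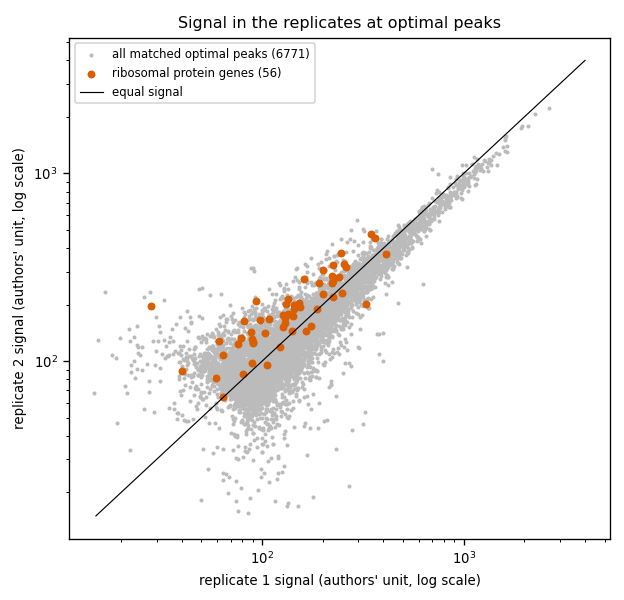
Signal of optimal peaks in replicate 1 (horizontal, log axis) and replicate 2 (vertical, log axis), with a line of equal signal. Grey points are all 6771 matched peaks and orange points the 56 matched ribosomal protein summits, 48 of which lie above the line.

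The replicates differed in how many of the genes they listed near the top, but little in how many they listed at all. Among as many of the strongest regions as there are optimal peaks, replicate 1 had a summit at 57 of the 91 genes (21.1% of all protein-coding genes) and replicate 2 at 65 (21.9% of all). They shared 56 genes; RpS10a was in replicate 1 only, and 9 genes were in replicate 2 only: RpL35, RpL35A, RpL39, RpL6, RpL7-like, RpS13, RpS23, RpS27A and RpS5a. A region of any strength lay at 77 genes in replicate 1 (44.7% of all protein-coding genes), 78 in replicate 2 (44.8%) and 78 in the pooled list (42.1%). The matched summits of the replicates lay a median of 22.5 bp apart at the 56 genes and 28 bp apart over all optimal peaks.

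Values near the threshold did not separate cleanly. The lowest bound genes were RpL35 (pooled 147, with 59.3 in replicate 1 and 81.2 in replicate 2) and RpL12 (pooled 148, with 64.1 and 64.3), and RpL12 was among the strongest regions of neither replicate. Just under the threshold, RpL35A ranked 7190 and RpS10a ranked 7192 in the pooled list, where the last optimal peak ranked 7184. The unbound RpL36A was singled out after its values were seen: it had a signal of 104 at rank 4741 in replicate 1, where the summit lay 9 bp downstream of a start, and 74.6 at rank 6961 in replicate 2, 110 bp downstream, yet no pooled summit lay within 500 bp. RpS27A, also singled out so, had its replicate 2 summit 9 bp upstream of its start, no region in replicate 1, and only a region 191 bp downstream in the pooled list.

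Where a ribosomal protein had paralogs, as a rule a single copy was bound. By symbol, 23 of the genes fall into 11 families. In 9 of these exactly 1 gene was bound, in RpL34 both were, and in RpS15A neither was. Of the 23 genes 11 were bound (47.8%, interval 26.8% to 69.4%), and of the 68 genes outside such families 48 (70.6%, interval 58.3% to 81.0%), so the intervals overlap. RpL34b had 776 and RpL34a 434, but the start nearest to the RpL34b summit was that of CG8132. RpS10b had 438 and RpS10a 137 in the pooled list, just below the threshold. RpL22 had 348, while its testis-enriched paralog RpL22-like had no region in any list. RpS5a had 170 and the germ-line copy RpS5b only 55.3, at 490 bp upstream. RpL7 had 833 and RpL7-like 124, RpL10Ab 301 and RpL10Aa none, and RpL37-1 204 and RpL37-2 none. RpS28b had 212, RpS28a 28.1 and RpS28-like none. RpS15Aa reached 136 and RpS15Ab 53.4. Embryo chromatin was mixed, so a copy used in few cells and a copy that is not bound cannot be told apart.

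RpS14a and RpS14b, tandem copies on X whose first starts are 1156 bp apart, and RpS19a and RpS19b are set side by side because the copies of each pair differ in binding. RpS14a (FBgn0004403) had a signal of 245 at 188 bp upstream, with 103 in replicate 1 and 142 in replicate 2. RpS14b (FBgn0004404) had 88.5 at 43 bp upstream, with 33.2 and 56.4. RpS19a (FBgn0010412) had 361 at 53 bp upstream, with 153 and 205, and RpS19b had no region in any list. Windows and capitals are as for the promoters above: RpS14a at chrX:7933592-7933761, RpS14b at chrX:7934748-7934917, RpS19a at chrX:16637744-16637913 and RpS19b at chr3R:23933511-23933680. In a global alignment the RpS14 windows were identical at 42.7% of positions and the RpS19 windows at 41.7%. Only the RpS14a window holds a DRE, 64 bp before the start. RpS14a and RpS19a hold CTTT 5 bp after the printed start, and RpS14b holds it 6 bp after, outside the limit of 5 bp. At its other start RpS14b has CTTT within the limit, so both RpS14 copies count as having it, and RpS19b does not. TATAA matches are capitalised in RpS14b, RpS19a and RpS19b.
RpS14a: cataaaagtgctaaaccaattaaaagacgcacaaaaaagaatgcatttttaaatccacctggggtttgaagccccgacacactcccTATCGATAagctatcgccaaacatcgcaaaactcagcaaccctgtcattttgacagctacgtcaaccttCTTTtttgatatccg
RpS14b: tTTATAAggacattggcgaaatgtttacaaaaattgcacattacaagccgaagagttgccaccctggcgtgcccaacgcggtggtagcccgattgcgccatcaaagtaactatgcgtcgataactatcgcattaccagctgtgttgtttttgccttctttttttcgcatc
RpS19a: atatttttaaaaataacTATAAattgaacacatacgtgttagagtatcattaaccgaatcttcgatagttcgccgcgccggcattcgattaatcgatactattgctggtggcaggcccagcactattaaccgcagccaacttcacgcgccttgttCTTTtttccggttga
RpS19b: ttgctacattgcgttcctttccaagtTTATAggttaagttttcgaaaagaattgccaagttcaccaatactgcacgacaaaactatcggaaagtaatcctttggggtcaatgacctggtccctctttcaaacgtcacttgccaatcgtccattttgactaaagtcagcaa

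Part of the ribosomal protein genes share a promoter region with a divergent neighbour, an arrangement also found over all protein-coding genes. A coding start of another gene on the opposite strand lay within 500 bp upstream of 35 of the 91 genes (38.5% in either subunit). Over all protein-coding genes this held for 3815 of 13945, so it is not particular to this group. Of the 35 genes, 30 were bound (85.7%, interval 69.7% to 95.2%). Without such a partner 29 of 56 were bound (51.8%, interval 38.0% to 65.3%). The same order held over all protein-coding genes, with 38.3% bound head to head and 14.6% otherwise. In the large subunit 19 of 20 head-to-head genes were bound, all but RpL7-like, and in the small subunit 11 of 15. These counts were made for genes, and a summit between 2 starts counts for both.

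At most shared promoters the summit lay nearer to the ribosomal protein gene. Of the 59 bound genes, 20 had no other start within 500 bp of the summit, 33 had another coding start and 6 only a non-coding one. The own start was nearest in 53, but these include the 20 with no other start near, where no other outcome was possible. Another gene's start was nearest in 6, all among the 33 with another coding start. They were RpL34b (776), RpS20 (529), RpL13 (521), RpL32 (493), RpL18 (286) and RpS6 (240). The matching share over other bound genes with a shared promoter is not given here. The RpL13 summit lay 87 bp upstream of RpL13 and 3 bp downstream of a start of Dref, which encodes the factor that binds the DRE, with 84 bp between the starts. The RpS6 summit lay 251 bp from bys, whose product works in ribosome assembly. RpL14 shares its summit with Nelf-E, a subunit of the pausing factor NELF, at 111 bp, and RpL28 with the initiation factor gene eIF1 at 317 bp. The median position was -33 bp where no other start was near (20 genes) and -48 bp where another coding start was (33 genes). The median signals were 278 and 349.

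The 32 unbound genes formed groups of unlike kind. In 19 a weaker pooled region was present, with a median signal of 88.5 (range 28.1 to 137). Its median position was -8 bp, with wider quartiles (-140.5 and 23.5 bp) than in the bound genes. RpS27A is among these 19, with its stronger region in replicate 2. RpL36A had a region in both replicates and RpS26 only one of 36.6 in replicate 1, but neither had one in the pooled list. The pooled list ends at 30000 regions, so a gene without one may have had a weaker region. The remaining 11 had no region in any list: RpL5, RpL9, RpL10, RpL15, RpL21, RpL38 and the paralogs RpL10Aa, RpL22-like, RpL37-2, RpS19b and RpS28-like.

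Of these 11, 5 lie where few regions were listed at all. RpL15, RpL5, RpL21, RpL38 and RpL10 have their starts 0.843, 0.977, 1.27, 4.52 and 5.01 Mb from the centromeric end of their arm. In the 250 kb to either side of them the pooled list held 0, 0, 4, 0 and 40.0 regions per Mb, leaving out those at the gene itself. The median was 282 per Mb around bound genes, 278 around unbound genes with a region in some list, and 264 around all protein-coding genes. Of the 710 protein-coding genes at or under 104 regions per Mb, the lowest twentieth, 13.8% had any pooled region. Only RpS3A, on chromosome 4, was bound among the 6 ribosomal protein genes there, with a signal of 186. What part the sparse lists around these 5 genes have in their lack of a region was not tested. RpL9 and the 5 paralogs lay among 176 to 394 regions per Mb.

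**Figure D4:**
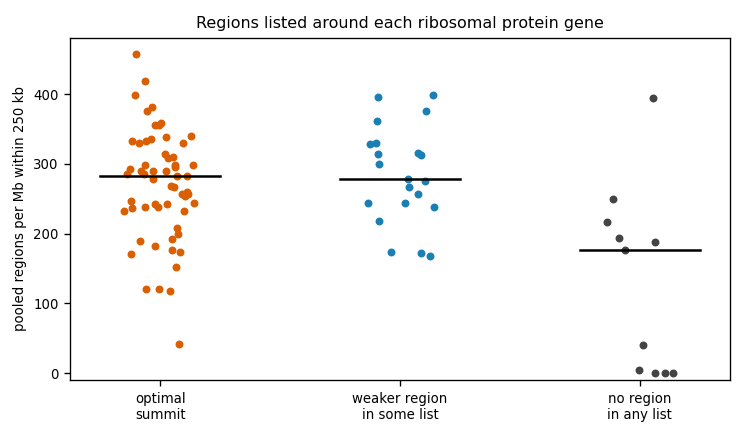
Pooled regions per Mb in the 250 kb to either side of each ribosomal protein gene (vertical axis), by whether the gene had an optimal summit, a weaker region in some list or no region in any list. Points are genes and bars medians; 5 of the 11 genes with no region sit at 40 per Mb or lower.

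By chromosome arm, the share bound was 13 of 15 on X (86.7%), 11 of 14 on 3L (78.6%), 13 of 20 on 2R (65.0%), 13 of 22 on 3R (59.1%) and 8 of 19 on 2L (42.1%). Over all protein-coding genes these arms ran from 19.6% to 22.4%. The interval on X was 59.5% to 98.3% and that on 2L 20.3% to 66.5%, so they overlap. Genes with an annotated snoRNA gene inside on the same strand, a common arrangement in ribosomal protein genes, were bound in 25 of 29 cases (86.2%, interval 68.3% to 96.1%), and those without in 34 of 62 (54.8%, interval 41.7% to 67.5%). Over all protein-coding genes the shares were 57.1% of 84 and 20.9% of 13861. The 84 include the 29 ribosomal protein genes, which make up 25 of the 48 bound among them. None of these splits was tested.

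Core promoter sequences were counted in bound and unbound ribosomal protein genes. CTTT with its C within 5 bp of a start, read on the gene's strand, was present in 58 of 91 ribosomal protein genes (63.7%) and in 8.07% of all protein-coding genes. The shares were 66.1% of bound and 59.4% of unbound ribosomal protein genes. Of the 1067 other coding genes with this match 26.9% were bound, at a median position of -169 bp and with a median replicate ratio of 1.08. With the C exactly at an annotated start, CTTT was in 3 of 91 ribosomal protein genes (3.3%) and 0.81% of all protein-coding genes. The larger shares thus depend on the 5 bp tolerance. In windows from 250 bp before to 50 bp after the 5'-most start, read on both strands, the DRE (TATCGATA), the site of the factor Dref, was in 29.7% of ribosomal protein genes and 9.36% of all promoters. It was in 30.5% of bound and 28.1% of unbound genes. The motif 1 core (GGTCACAC) was in 16.5% against 7.70% (18.6% of bound and 12.5% of unbound genes). The E-box CACGTG, the site of Myc with Max, was in 6.59% against 4.20%. It was in 8.47% of bound genes (5 of 59) and 3.12% of unbound genes (1 of 32). In the window from 100 bp before the start the E-box was in 6.59% against 2.40%. GAGAGAG, the site of the GAGA factor, was in 0 of 91 against 5.87%. TATAA was in 69.2% against 65.3% (72.9% of bound and 62.5% of unbound genes), but in the window from 100 bp before the start it was in 20 of 91 genes against 37.1% of all. No motif contains another. A match is a description and not a site.

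The motifs were also counted near the summits. Within 100 bp of the strongest summit, the DRE was found at 13 of 59 ribosomal protein genes and at 4.85% of the 2145 summits of all bound protein-coding genes. With summits limited to 100 bp from the own start the shares were 23.4% and 10.2%. For the E-box they were 13.6% (8 of 59) and 2.28%, and with that limit 17.0% (8 of 47) and 3.64%. The motif 1 core was at 10.2% and 2.24%. TATAA went the other way, at 42.4% and 63.2%, and with that limit 31.9% and 51.1%. GAGAGAG was at 0 of 59 and 3.22%. In the promoter windows, not limited to 100 bp from the summit, the first base of the DRE lay a median of 43.5 bp from it. The range was 2 to 243 bp over 16 matches, in bound genes whose summit was nearest to the 5'-most start. The GC content around these summits also differed, at a median of 42.8% against 32.3%, and its part in the motif shares was not tested. These shares describe sequence at peaks and were not tested.

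**Figure D5:**
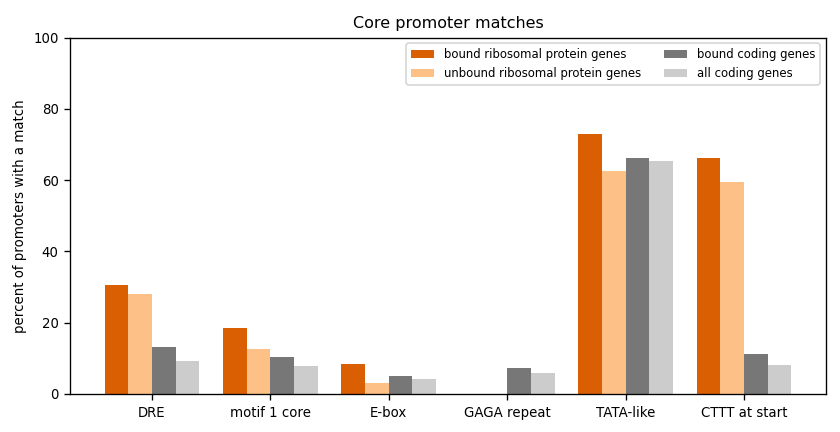
Percent of promoters with a match (vertical axis) to 6 sequences, for bound and unbound ribosomal protein genes, bound coding genes and all coding genes. Both groups of ribosomal protein genes stand above the coding genes for CTTT within 5 bp of a start (66.1% and 59.4% against 8.07% of all). They also do so for the DRE, and have no GAGA repeat.

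Other gene groups of translation were counted in the same way. Mitochondrial ribosomal protein genes were bound in 25 of 73 cases (34.2%), with a median signal of 287, a median position of -152 bp and a median replicate ratio of 1.00. Translation factor genes were bound in 18 of 53 cases (34.0%), with a median signal of 303, a position of -49.5 bp and a ratio of 0.800. Those of the cytoplasmic ribosomal protein genes were -38 bp and 0.750. With the summit within 100 bp of a start, the ratio was 0.733 over 10 translation factor genes and 0.728 over 45 ribosomal protein genes. Over 3 mitochondrial genes it was 0.839. Without head-to-head partners the position was -16 bp over 8 translation factor genes, nearer the start than the -33 bp of the ribosomal protein genes. The differences between the groups were not tested.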

How the data were processed

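Anti-GFP chromatin immunoprecipitation and sequencing was made on 2 biological replicates, after sonication to fragments of 200 to 800 bp, per the labels. Per the deposited descriptions, the authors called peaks and background regions on each replicate and on both pooled, each against a control, and kept the peaks that passed reproducibility thresholding as the optimal list. At the ribosomal protein genes, optimal summits kept their pooled signal and rank, so membership there followed pooled signal and not the replicates gene by gene. Neither the programs that mapped reads and called peaks nor the reproducibility cutoff is stated (not given in the sources used here). Signal, as deposited by the authors, is 1 value per region and was used within a list, apart from the replicate ratio. The deposited -log10 q values were not used, because they share 1 value over the whole optimal list. Depth is unknown, since the lists hold no counts. No test was run.

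Regions on the chromosome arms in the dm6 lists were used, and not those in the dm3 lists, with the Ensembl release 115 annotation (BDGP 6.54) and the RefSeq Release 6 genome. Without pseudogenes and transposable elements, the annotation held 13945 coding and 3951 non-coding genes. A gene was bound when a summit (region start plus offset) lay within 500 bp of any of its starts, and its strongest summit gave its values. Shares have exact binomial intervals of 95%. Promoter windows were read from the genome with Ensembl starts in place of the planned RefSeq windows, and protein identity of paralogs was not analysed here. Motifs, windows, neighbours and ratios were counted in Python 3.11.15 with pandas 2.3.3 and SciPy 1.17.1. The assignment of summits was tested on simulated data. The genes and lists were chosen with earlier results of these data known. Genes named in full were the 6 strongest with their own start nearest, paralogs, those nearest the threshold, those of extreme replicate ratio, those with no region and those whose summit is nearer another gene. Genes named for their role or their neighbour, and the pairs whose sequences are shown, were chosen after their values were seen. Some genes are counted but not reported here by name. Alternatives were other windows, start sites, list thresholds, each replicate alone and other pairings of replicate summits.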

Additional observations from a re-analysis of the deposited data

How the results depend on the processing

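The count of 59 bound genes, beside a background of 21.1% of all coding genes, ranged from 42 with the strongest 3592 optimal peaks (background 13.2%) to 78 with all pooled regions (background 42.1%). It was 54 to 60 with other windows, start sites or overlap rules (background 13.9% to 24.2%). With either replicate alone it was 57 to 65, for the large subunit 36 to 41 and for the small subunit 21 to 24. Counting once genes that share a summit or lie within 500 bp of each other left 59. The small subunit count of 22 moved to 12 with the strongest 3592 peaks and to 36 with all pooled regions, where the order of the subunits turned. The median signal of 317 was 353 with the strongest 3592 peaks, 275 with all pooled regions and 141 to 171 in the replicate lists, whose scales differ. The median position of -38 bp ranged from -42 to -33 bp under the other settings and was -41 to -26 bp with either replicate alone. The replicate ratio of 0.750 was 0.759 and 0.757 with matching within 50 and 200 bp, 0.763 with the strongest regions and 0.732 without head-to-head genes, all chosen after seeing the data. No paired analysis was possible because there is 1 group. Depth, the missing untagged control and 2 replicates limit every value.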
